A study of Mus musculus with 6 samples.

Results

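The miRNAs described here come from the imprinted Dlk1-Dio3 region of mouse chromosome 12. They were chosen by name and position, as a list of 44 mature miRNAs with no threshold on a measured value, and all 44 were found among the 1976 mature miRNAs of the deposited table. They were measured by small RNA sequencing of extracellular vesicles (exosomes in the labels), the membrane-bound particles that cells release, from primary hepatocytes of wild-type C57BL/6J mice. The control group (Control, 3 libraries) had palmitic acid at 0 µM and the treated group (PA, 3 libraries) at 600 µM. This saturated fatty acid makes cultured liver cells store lipid, and the title of the series is about steatosis and the action of such vesicles on endothelium. Nothing in the labels states that replicate libraries are independent animals or cultures; the p-values therefore reflect only the spread among these 6 libraries, which may be technical.

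In the Dlk1-Dio3 region the chromosome inherited from the mother makes the long noncoding RNAs Meg3, Rian and Mirg together with one of the largest groups of miRNA hairpins in mammals, and the chromosome inherited from the father makes the mRNAs Dlk1, Rtl1 and Dio3. The miRNAs are abundant in the embryo, the placenta and the brain and are low in adult liver. Several hairpins lie antisense to Rtl1, and their miRNAs pair perfectly with its mRNA and direct its cleavage. The hairpins from Mir379 to Mir410 have been linked to the metabolic switch of the newborn liver, and miR-379 to lipoprotein release by hepatocytes.

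The listed miRNAs come from 38 hairpins between positions 109563692 and 109743795 of chromosome 12 (GRCm38), a span of 180.1 kb. By position, 8 members from 7 hairpins lie proximal, from Mir770 in an exon of Meg3 onward. The Rtl1 antisense group has 7 members from 5 hairpins on the strand opposite to the exon of Rtl1 (chr12:109589193-109600330, minus strand). The stretch from Mir379 to Mir410 has 29 members from 26 hairpins, and the hairpins from Mir382 on lie within Mirg (chr12:109729764-109749460, plus strand). Mir370, in an intron of Rian between these groups, is counted with the proximal members.

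Mature sequences were found for 41 of the 44 members in the RefSeq miRNA table (GRCm38.p6); mmu-miR-376c-3p, mmu-miR-485-5p and mmu-miR-487b-3p are given by name only. The 41 sequences had 41 different seeds (bases 2 to 8, which pair with target mRNAs), so no 2 of these members shared one. The seeds of 7 members also occurred in another miRNA of the table: that of mmu-miR-379-5p in mmu-miR-1193-5p, and that of mmu-miR-411-5p in mmu-miR-7229-5p. The 9 members below hold most of the cluster's reads or carry the comparison between the groups. They are written 5′ to 3′ in order along the chromosome, with the seed in capitals.
mmu-miR-127-3p: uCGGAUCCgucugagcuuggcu
mmu-miR-434-5p: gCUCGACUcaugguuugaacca
mmu-miR-379-5p: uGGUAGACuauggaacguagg
mmu-miR-411-5p: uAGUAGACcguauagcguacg
mmu-miR-300-3p: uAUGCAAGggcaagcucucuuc
mmu-miR-381-3p: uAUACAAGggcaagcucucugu
mmu-miR-134-5p: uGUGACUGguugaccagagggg
mmu-miR-541-5p: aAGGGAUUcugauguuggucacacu
mmu-miR-369-3p: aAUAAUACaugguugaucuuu

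The sequences of mmu-miR-379-5p and mmu-miR-411-5p, from neighbouring hairpins at chr12:109709060-109709125 and chr12:109710175-109710256, differ within the seed, and so do those of mmu-miR-300-3p and mmu-miR-381-3p. The latter pair differed at 3 of 22 positions counted from the 5′ end of mmu-miR-300-3p (G4A, U21G and C22U), the closest match found between 2 listed members together with the pair mmu-miR-376a-3p and mmu-miR-376b-3p, which differed at 3 of 21. Reads of such pairs could be split between them by the counting, whose rule is not given in the sources used here, so their separate values are uncertain. The other hairpins of the 9 are Mir127 (chr12:109592846-109592915) and Mir434 (chr12:109594506-109594599) opposite the Rtl1 exon, Mir300 (chr12:109724313-109724391) and Mir381 (chr12:109726822-109726896) upstream of Mirg, Mir134 (chr12:109734139-109734209) in an exon of Mirg, and Mir541 (chr12:109742409-109742498) and Mir369 (chr12:109743418-109743496) in introns of Mirg. All of them are on the plus strand.

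Depth and makeup differed between the groups before any single miRNA was considered. The deposited values are log2(adjusted count + 1), where the adjustment rescales each library by a fitted factor and does not give the libraries equal totals, and whole reads were recovered by inverting it. Control replicates 1, 2 and 3 had totals of 95238, 657581 and 252325 recovered reads, and PA replicates 1, 2 and 3 had 799133, 761824 and 613480. With reads of miR-122, the liver's most abundant miRNA, and of miR-122b set aside, 29340, 80734 and 52593 reads were left in the Control libraries and 676812, 672332 and 534300 with PA. Under the fitted factors, a single read was worth a deposited value of at least 1.37 in Control libraries and as little as 0.28 with PA. Hepatocyte markers, a list that includes miR-122-5p, miR-192-5p and miR-148a-3p, took 63.7% to 82.5% of the reads in Control libraries and 30.3% to 46.3% with PA. These markers did not move together: in limma mmu-miR-122-5p was lower with PA by 3.56 on the log2 scale (adjusted p = 0.0141), mmu-miR-192-5p was higher by 1.94 (adjusted p = 0.0259), and mmu-miR-148a-3p, at 0.83 (adjusted p = 0.453), did not pass.

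The cluster was a trace component of the vesicles. Its members had 606 reads of the 3179581 recovered in all, 105 in Control libraries and 501 with PA. At least 1 read was found for 27 of the 44 members (61.4%), against 950 of the 1976 miRNAs of the table (48.1%). The other 17 members had no read in any library, which allows a level of up to 0.944 RPM (reads scaled to a library total of 1000000) over the 6 libraries (3 reads of the total; counting error only). These 17 were mmu-miR-770-3p, mmu-miR-493-3p, mmu-miR-337-3p and its partner arm mmu-miR-337-5p, mmu-miR-540-3p, mmu-miR-431-5p, mmu-miR-136-5p, mmu-miR-323-3p, mmu-miR-667-3p, mmu-miR-376c-3p, mmu-miR-376a-3p, mmu-miR-487b-3p, mmu-miR-539-5p, mmu-miR-382-3p, mmu-miR-154-5p, mmu-miR-377-3p and mmu-miR-410-3p. By position, reads were found for 19 of 29 members from Mir379 to Mir410 (492 reads), 5 of 7 in the Rtl1 antisense group (109 reads) and 3 of 8 proximal members (5 reads).

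More members were detected with PA. At least 1 read was found for 7, 3 and 2 members in Control replicates 1, 2 and 3 (mean 4 ± 2.65, SD, n = 3) and for 16, 16 and 14 in PA replicates 1, 2 and 3 (mean 15.3 ± 1.15, SD, n = 3), so the groups did not overlap. The whole table moved alike, with a read for 12% to 12.3% of its miRNAs in Control libraries and for 24.5% to 32.4% with PA. The difference in members detected shrank with depth taken into account. At the 95238 reads of the shallowest library the expected numbers were 7, 1.44 and 1.83 in Control libraries and 8.1, 6.78 and 6.43 with PA. Control replicate 1 lay within the PA range there. At the 29340 reads other than miR-122 of the shallowest library, the expected numbers were 7, 2.19 and 1.96 in Control libraries and 4.67, 3.94 and 3.55 with PA. These overlapped too.

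**Figure D1:**
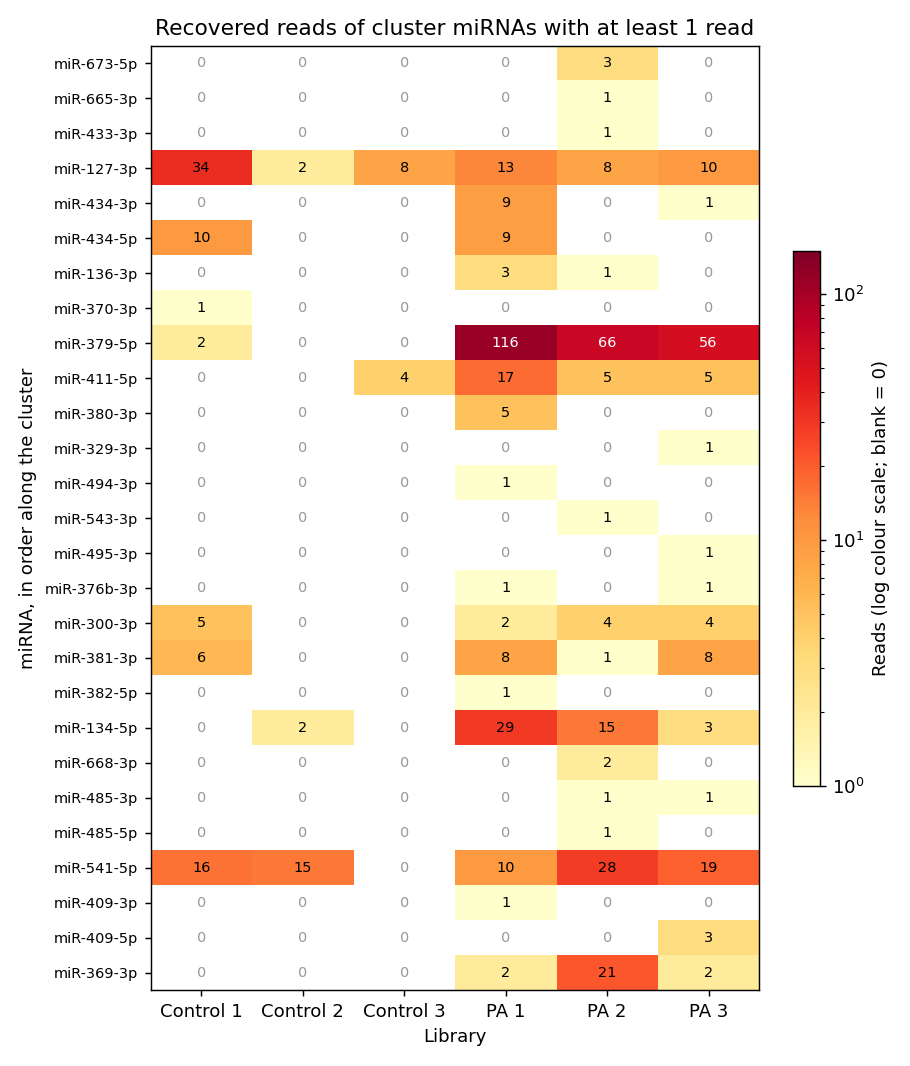
Recovered reads of the 27 cluster miRNAs with at least 1 read (vertical axis, in order along the cluster) in each of the 6 libraries (horizontal axis), with the number printed in each cell and a log colour scale. The PA columns hold reads of 26 members and the Control columns reads of 9, and mmu-miR-127-3p is the member with reads in all 6 libraries.

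Some members had reads with PA alone, and whether their PA level exceeded what the Control libraries allow depended on the denominator. Over the whole table too, more miRNAs had a read with PA (484 to 640 per library) than in Control libraries (238 to 243). The share of the table with reads only with PA was not counted, so the number for the members is no trait of the cluster. Reads were found only with PA for 18 members, which had 65 reads between them, 1 to 25 each. At their PA rate among reads other than miR-122, 5.61 reads would have been expected in the 3 Control libraries together for all 18. Their count of 0 there follows from how the 18 were picked, so the expected number is no test of absence. The level in PA of each of the 18 lay under the 18.4 RPM that a count of 0 in the Control libraries allows on that denominator. Over all reads, where a count of 0 allows 2.98 RPM, 16 of the 18 lay under it, and mmu-miR-369-3p (11.5 RPM with PA, 11.6 Control reads expected) and mmu-miR-434-3p (4.6 RPM, 4.62 expected) lay above it. The 1 member with a read in Control libraries alone was mmu-miR-370-3p, a miRNA studied in liver as a regulator of fatty acid oxidation, with 1 read in Control replicate 1.

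The summed level of the cluster did not separate the groups. On the deposited scale the members' adjusted counts summed to 216.7, 53.23 and 27.28 in Control libraries and to 112.6, 55.86 and 68.32 with PA. Control replicate 1 stood highest and the other 2 Control libraries lowest, with the PA libraries between them. Scaled to all reads the cluster had 777 (95% exact binomial interval 610 to 975), 28.9 (17.4 to 45.1) and 47.6 (24.6 to 83.1) RPM in Control replicates 1, 2 and 3, and 284 (248 to 324), 209 (178 to 244) and 187 (155 to 225) with PA. Control replicate 1 thus lay above all PA libraries and Control replicates 2 and 3 below all of them, beyond counting error. Scaled to reads other than miR-122 (RPM without miR-122), Control replicates 2 and 3 had 235 and 228 and the PA libraries 335, 236 and 215, while Control replicate 1 had 2520. In vesicle RNA, a changed share of vesicles that carry these miRNAs and a changed amount per vesicle cannot be told apart.

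The summed level also depended on mmu-miR-379-5p, the member with the most reads (by mean adjusted count mmu-miR-127-3p stood first, at 23.2 against 20). Of the 240 reads of mmu-miR-379-5p, 238 were with PA, so leaving it out lowers the PA sums by construction. With mmu-miR-379-5p left out, the cluster had 2450, 235 and 228 RPM without miR-122 in Control libraries and 164, 138 and 110 with PA, so that all Control libraries lay above all PA libraries on that denominator. Control replicates 2 and 3 rest there on 19 and 12 reads, and their intervals (142 to 367 and 118 to 399) overlap those of PA replicates 1 and 2 (135 to 198 and 112 to 169); that of Control replicate 3 also overlaps that of PA replicate 3 (84.1 to 142). Over all reads, the other members had 756, 28.9 and 47.6 RPM in Control libraries and 96.2 to 139 with PA, which overlapped. The order of the groups for these members therefore depended on the miR-122 reads in the denominator.

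**Figure D2:**
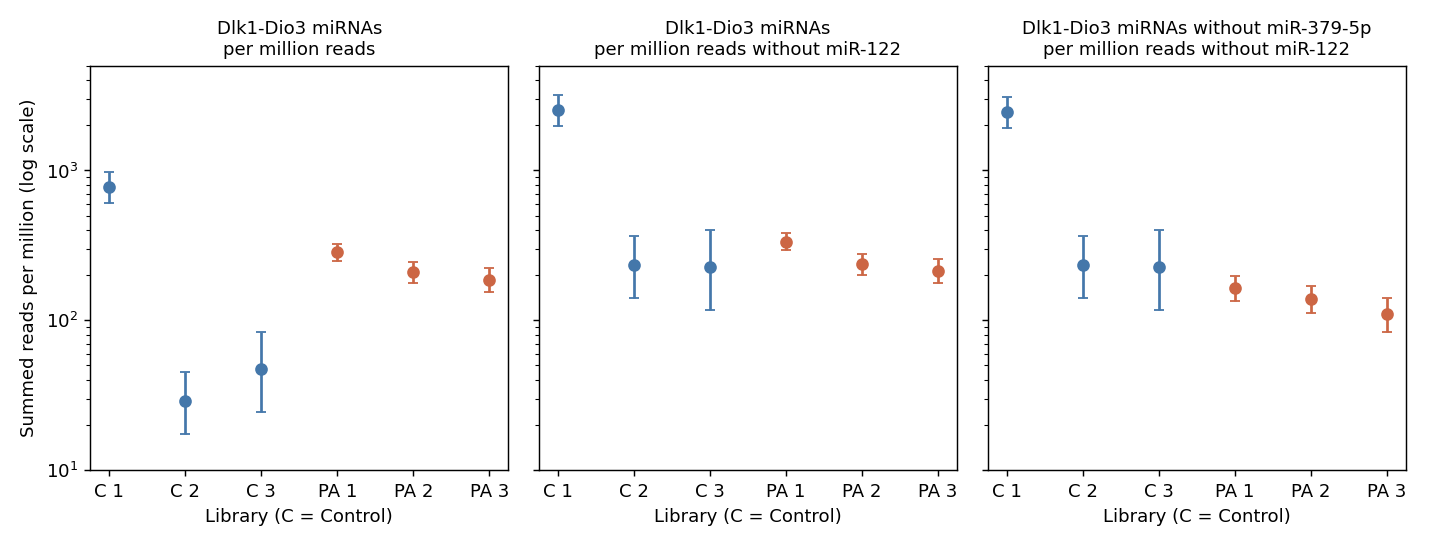
Summed cluster RPM (log axis) in each library, over all reads (left), over reads other than miR-122 (middle) and without mmu-miR-379-5p over reads other than miR-122 (right). Bars are 95% exact binomial intervals. Control replicate 1, at 777, 2520 and 2450, is the highest library in each panel, and the other 2 Control libraries lie below the PA libraries in the left panel and above them in the right panel.

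The member with the most reads was mmu-miR-379-5p, the first miRNA of the Mir379 to Mir410 stretch. It had 2, 0 and 0 reads in Control replicates 1, 2 and 3 and 116, 66 and 56 reads in PA replicates 1, 2 and 3. Its deposited values were 2.94, 0.37 and 0.26 in Control libraries (mean 1.19 ± 1.52, SD, n = 3) and 5.85, 4.58 and 5.10 with PA (mean 5.18 ± 0.64, SD, n = 3). The groups did not overlap, as was the case for 68.0% of the 181 miRNAs tested. Over all reads of a group, 2 of 1005144 reads in Control libraries and 238 of 2174437 with PA gave a ratio of 55.0 (95% exact interval 15.1 to 457). Over reads other than miR-122 the ratio was 10.3 (2.81 to 85.4), both intervals covering counting error only. The other arm, mmu-miR-379-3p, which is not on the list, had 2 reads, both with PA.

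In the limma test across miRNAs that reached an adjusted count of 10 in 3 or more libraries, 2 of the 44 members could be tested, mmu-miR-379-5p and mmu-miR-541-5p. Of the 181 miRNAs tested, 102 (56.4%) passed an adjusted p of 0.05, and 76 of them (42.0%) were higher with PA, with a median log2 change of 1.94 over all tested. The value of mmu-miR-379-5p rose by 3.99 on the log2(adjusted count + 1) scale (SE 0.788, limma Benjamini-Hochberg adjusted p = 0.00298), or by 4.86 without Control replicate 1, the 1 Control library with reads of it, and 42 other tested miRNAs had a larger change. It entered the test only through the PA libraries, where it is high, so that its call adds little to the values themselves. The change was 2.05 when measured against the median change of all tested miRNAs, with an adjusted p of 0.0532 in limma, a setting in which 26.5% of the 181 miRNAs were called higher.

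The member with the most reads in Control libraries was mmu-miR-127-3p, of the Rtl1 antisense group. Control replicates 1, 2 and 3 had 34, 2 and 8 reads of it, and the PA libraries 13, 8 and 10. The deposited values were 6.68, 2.77 and 4.197 in Control libraries (mean 4.55 ± 1.98, SD, n = 3) and 2.86, 1.86 and 2.77 with PA (mean 2.50 ± 0.55, SD, n = 3). Control replicates 1 and 3 lay above the PA libraries, and Control replicate 2 lay within them. In all, 44 reads in Control libraries and 31 with PA gave a ratio of 0.326 (0.199 to 0.528) over all reads and of 0.0608 (0.0371 to 0.0986) over reads other than miR-122, with counting error only. Control replicate 1 held 34 of the 44 reads, and without it the ratios were 1.3 (0.62 to 2.97) and 0.219 (0.105 to 0.502), so the direction over all reads turned. The filter left it out; with a looser filter (an adjusted count of 5 reached in 2 or more libraries) it was lower with PA by 2.05 on the log2 scale with an adjusted p of 0.14 in limma, which did not pass.

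Set side by side within each library, the order of these 2 members differed between the groups. The deposited value of mmu-miR-379-5p minus that of mmu-miR-127-3p was −3.73, −2.40 and −3.94 in Control libraries (mean −3.36 ± 0.83, SD, n = 3) and 3, 2.72 and 2.32 with PA (mean 2.68 ± 0.34, SD, n = 3). In reads, mmu-miR-379-5p had 2 against 34, 0 against 2 and 0 against 8 in Control libraries, and 116 against 13, 66 against 8 and 56 against 10 with PA. Every PA library thus had more reads of mmu-miR-379-5p than of mmu-miR-127-3p, and every Control library fewer. The ratio of the reads of 2 miRNAs in a library does not depend on its total or on its miR-122 reads. The pair was chosen after its values were seen, so the difference is given without a test.

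As a share of the cluster's reads, mmu-miR-379-5p took 2.7%, 0% and 0% in Control libraries and 51.1%, 41.5% and 48.7% with PA. The share of mmu-miR-127-3p was 45.9%, 10.5% and 66.7% in Control libraries and 5.73%, 5.03% and 8.7% with PA. The Control shares rest on 74, 19 and 12 cluster reads and the PA shares on 227, 159 and 115. All members from Mir379 to Mir410 together took 39.2%, 89.5% and 33.3% of the cluster's reads in Control libraries and 85%, 91.2% and 90.4% with PA, and Control replicate 2 lay within the PA range because of its mmu-miR-541-5p reads.

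**Figure D3:**
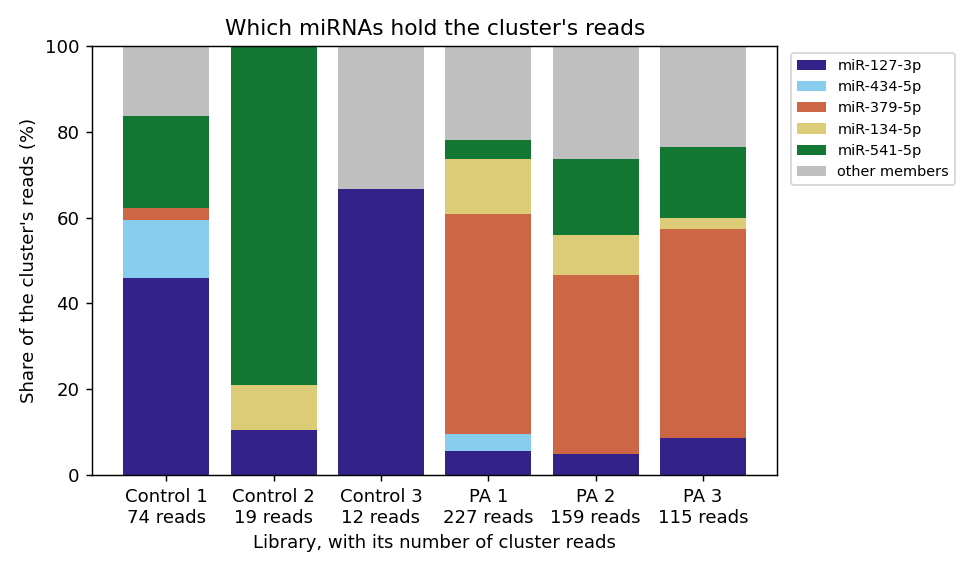
Share of the cluster's reads (percent, vertical axis) taken by 5 members and by the other members together in each library, with the number of cluster reads under each bar. The orange segment of mmu-miR-379-5p takes 41.5% to 51.1% in the PA libraries and at most 2.7% in Control libraries, which hold 12 to 74 reads.

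Within the Rtl1 antisense group, both arms of Mir434 were listed. The 5p arm, mmu-miR-434-5p, had 10, 0 and 0 reads in Control libraries and 9, 0 and 0 with PA, and the 3p arm, mmu-miR-434-3p, had 0 reads in each Control library and 9, 0 and 1 with PA. The deposited values of mmu-miR-434-5p were 4.84, 0.30 and 0.22 in Control libraries and 2.42, 0 and 0 with PA, and those of mmu-miR-434-3p were 0.15, 0.13 and 0.10 in Control libraries and 2.59, 0 and 0.63 with PA. Each arm rested mostly on 1 library of a group, and the groups overlapped for both. The remaining members of this group with reads were mmu-miR-136-3p, with 3 and 1 reads in PA replicates 1 and 2, and mmu-miR-433-3p, with 1 read in PA replicate 2.

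At the start of the longer stretch, mmu-miR-411-5p, from the hairpin next to Mir379, overlapped between the groups. It had 0, 0 and 4 reads in Control libraries and 17, 5 and 5 with PA, with deposited values of 0.30, 0.26 and 3.19 in Control libraries and 3.26, 1.40 and 1.98 with PA. Control replicate 3 lay between PA replicates 1 and 3. With the looser filter its change was 0.96 on the log2 scale (limma adjusted p = 0.394). The difference between the changes of the 2 neighbours was not tested.

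In the middle of the stretch, the similar miRNAs mmu-miR-300-3p and mmu-miR-381-3p had all of their Control reads in Control replicate 1. Reads of mmu-miR-300-3p were 5, 0 and 0 in Control libraries and 2, 4 and 4 with PA, at deposited values of 3.81, 0.25 and 0.18 against 0.91, 1.19 and 1.74. For mmu-miR-381-3p they were 6, 0 and 0 in Control libraries and 8, 1 and 8 with PA, at deposited values of 4.12, 0.28 and 0.21 against 2.29, 0.28 and 2.52. Their summed reads, which do not depend on how the counting split the pair, were 11, 0 and 0 against 10, 5 and 12, and the groups overlapped on the deposited scale for both.

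Among the miRNAs within Mirg, mmu-miR-134-5p, known from neurons as a regulator of dendritic spines, had 0, 2 and 0 reads in Control libraries and 29, 15 and 3 with PA. Its deposited values were 0.35, 2.70 and 0.22 in Control libraries (mean 1.09 ± 1.40, SD, n = 3) and 3.96, 2.64 and 1.43 with PA (mean 2.67 ± 1.26, SD, n = 3). Control replicate 2 lay between PA replicates 1 and 2, so the groups overlapped. The ratio over all reads was 10.9 (2.84 to 92.3), but over reads other than miR-122 it was 2.03 (0.531 to 17.2), an interval that includes 1. Both intervals cover counting error only and leave out the spread between libraries. With the looser filter its change was 1.59 (limma adjusted p = 0.177).

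Near the distal end, mmu-miR-541-5p had 16, 15 and 0 reads in Control libraries and 10, 28 and 19 with PA. Its deposited values were 5.62, 5.35 and 0.25 in Control libraries (mean 3.74 ± 3.02, SD, n = 3) and 2.53, 3.41 and 3.61 with PA (mean 3.18 ± 0.58, SD, n = 3). The Control libraries lay on both sides of the PA libraries. The change was −0.56 (SE 1.35, limma adjusted p = 0.741, 95% interval −3.67 to 2.56), which did not pass. Without Control replicate 3, which had no read of it, the change was −2.30 with a limma adjusted p of 0.0206, and without Control replicate 1 it was 0.38. With counting error only, read counts gave a ratio of 0.85 (0.54 to 1.36) over all reads and of 0.159 (0.101 to 0.254) over reads other than miR-122. Without Control replicate 1 these ratios were 1.59 (0.888 to 3.02) and 0.269 (0.15 to 0.512).

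The value of mmu-miR-369-3p, a miRNA known to act through AU-rich elements of cytokine mRNAs, came mostly from 1 library. It had no read in Control libraries and 2, 21 and 2 reads with PA, with deposited values of 0.26, 0.23 and 0.17 in Control libraries and 0.91, 3.15 and 1.08 with PA. The deposited values of the groups did not overlap, but the Control values stand for 0 reads, and the 25 PA reads amount to 13.3 RPM without miR-122, under the 18.4 RPM that the Control libraries allow. Over all reads they amount to 11.5 RPM, above the 2.98 RPM allowed there. The other named members were seen in single libraries. Both mmu-miR-380-3p (5 reads in PA replicate 1; deposited value 1.98 there) and mmu-miR-409-5p (3 reads in PA replicate 3; 1.62 there) had deposited values under 0.1 in each Control library and of 0 in the other PA libraries.

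**Figure D4:**
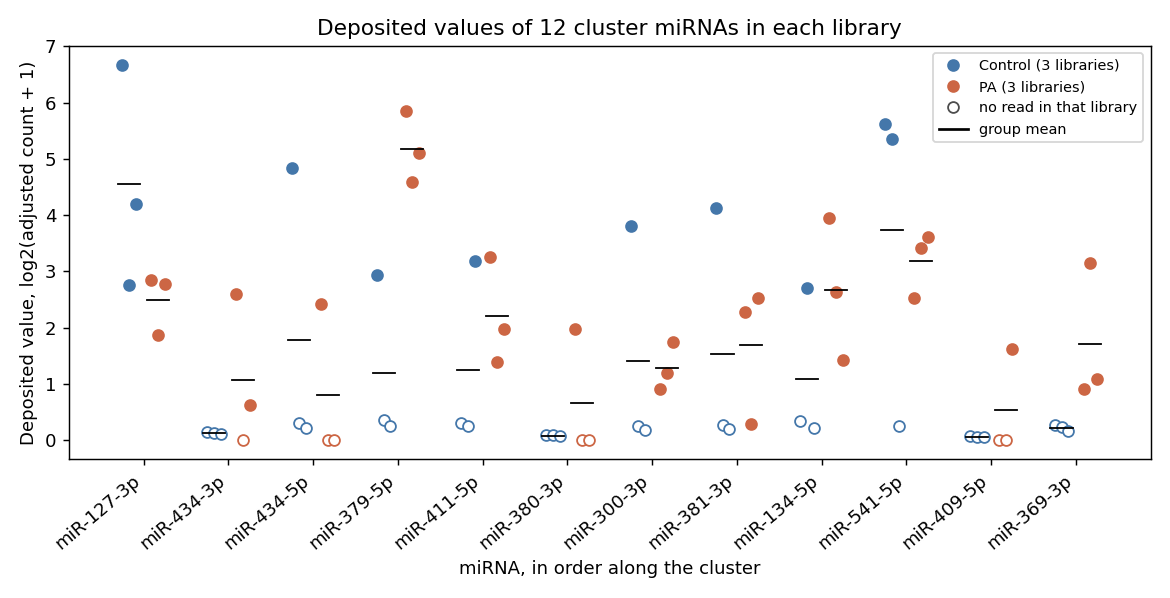
Deposited values, log2(adjusted count + 1), of the 12 members with the highest mean adjusted count (horizontal axis, in order along the cluster) in each Control (blue) and PA (orange) library; open circles are libraries with no read and black lines are group means (3 libraries each). The groups are apart for mmu-miR-379-5p, at most 2.94 against at least 4.58, while the Control points of mmu-miR-127-3p and mmu-miR-541-5p are spread widely.

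These 12 members held 583 of the 606 reads (96.2%). The other 15 members with a read had 23 reads together, 1 to 4 each, in at most 2 libraries, and 10 of them had 1 read. They included mmu-miR-673-5p with 3 reads, mmu-miR-376b-3p, mmu-miR-668-3p and mmu-miR-485-3p with 2 each, and mmu-miR-494-3p, mmu-miR-495-3p, mmu-miR-543-3p and mmu-miR-329-3p with 1 each. No comparison between the groups can be read from these.

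A value above 0 in a Control library did not always mean that the member was found there. In Control replicate 1, 29 members had a deposited value above 0 and 7 had a read. Over the 3 Control libraries, 75 member values between 0.02 and 0.37 stood for 0 reads, and no such value occurred with PA. Without the filter on low values, 1058 miRNAs were tested and 148 (14.0%) passed, and 39 of those 148 had no read in any of the 6 libraries. Of the 29 members tested in that way, 3 passed in limma: mmu-miR-379-5p (adjusted p = 0.0401), and mmu-miR-376a-3p and mmu-miR-493-3p, lower with PA by 0.07 and 0.04 on the log2 scale (adjusted p = 0.0166 and 0.0262). The calls of mmu-miR-376a-3p and mmu-miR-493-3p were thus made between values that stand for 0 reads in every library.

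The remaining miRNAs of the region were also near the limit of detection. The hairpins of the region gave 67 further mature miRNAs in the table, of which 25 had a read, 15 reads in Control libraries and 51 with PA, and none entered the test. The most abundant by adjusted count were mmu-miR-299a-5p (0, 7 and 0 reads in Control libraries, 0, 3 and 0 with PA), mmu-miR-376b-5p (8 reads in PA replicate 3) and mmu-miR-411-3p (2 reads in Control replicate 1 and 1 in PA replicate 2).

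A second imprinted miRNA cluster lies in an intron of Sfmbt2 on chromosome 2 and is expressed from the paternal chromosome. Its name families, miR-297, miR-466, miR-467 and miR-669, were counted for comparison. They were taken by name with no check of position, so some may come from hairpins elsewhere. The 80 miRNAs of these families had 0, 3 and 3 reads in Control libraries and 314, 433 and 74 with PA, of which mmu-miR-467a-5p had 204, all with PA. In RPM without miR-122, this was 0, 37.2 and 57 in Control libraries and 464, 644 and 138 with PA, and the values of the groups did not overlap. The 95% intervals of Control replicates 1 and 3 (0 to 126 and 11.8 to 167) overlapped that of PA replicate 3 (109 to 174). Those of PA replicates 1 and 2 (414 to 518 and 585 to 708) lay above all Control intervals. The values of the Dlk1-Dio3 cluster on that scale, 2520, 235 and 228 against 335, 236 and 215, overlapped. None of the 80 entered the test, and the difference between the 2 lists was not tested.

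Markers of several other cell types were highest in Control replicate 1, the library with the highest level of the cluster. The 5 neuronal markers, a cell type in which the region's miRNAs are abundant, had 12800, 334 and 3860 RPM without miR-122 in Control replicates 1, 2 and 3 and 68, 41.6 and 31.8 with PA. All 5 had a read in Control replicate 1, where mmu-miR-9-5p had 256 and mmu-miR-124-3p, the defining neuronal miRNA, had 6. No read of mmu-miR-124-3p was found in the other 5 libraries. In Control replicates 2 and 3 the sums rested on mmu-miR-128-3p (27 and 111 reads) and mmu-miR-9-5p (0 and 92). With PA, mmu-miR-128-3p had 36, 27 and 16 reads and mmu-miR-9-5p had 10, 0 and 1. The 3 erythroid markers had 310 to 18500 RPM without miR-122 in Control libraries and 28.1 to 181 with PA, with mmu-miR-144-3p at 0 throughout. The 3 striated muscle markers had 780 to 7670 and 29.7 to 59.1. These muscle reads were nearly all of mmu-miR-206-3p (221, 63 and 258 in Control libraries, 40, 20 and 17 with PA). The other 2 were near absent, mmu-miR-1a-3p with 4 reads, all in Control replicate 1, and mmu-miR-133a-3p with 0 throughout. The 6 stellate cell and fibroblast markers had 1280 to 7020 RPM without miR-122 in Control libraries and 556 to 755 with PA. Most of these reads were of mmu-miR-143-3p (309 in Control libraries, 919 with PA) and mmu-miR-199a-3p (127 and 207), and mmu-miR-199a-5p had 16 and 59. The list did not move together: mmu-miR-145a-5p, mmu-miR-199b-5p and mmu-miR-214-3p had 0 reads in Control libraries and 18, 1 and 2 with PA. The 2 endothelial markers had 7050 to 16400 RPM without miR-122 in Control libraries, highest in Control replicate 3, and 4420 to 5620 with PA. The 4 immune and Kupffer cell markers had 0 to 239 in Control libraries and 5.91 to 19.3 with PA. The part of these cell types in the reads of the cluster was not tested.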

How the data were processed

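Small RNA libraries were made from Trizol-extracted vesicle RNA with a NEBNext Multiplex small RNA kit, per the labels' protocols. The builds GRCm38 and mm10 and the tools Bowtie2 and bedtools are named, with neither version nor role, per the submitters' processing notes. How reads were counted over miRNAs, and over which annotation, is not given in the sources used here. Values in the deposited table are on a log2 scale, although it is named as raw counts; the values fit log2(adjusted count + 1), with counts rescaled by 1 factor per library through negative binomial quantiles (dispersion fitted at 1.39; library factors 0.322, 0.369 and 0.464 for Control and 2.05, 2.86 and 1.69 for PA). No label states this step, and libraries not analysed here may have entered it: 108 miRNAs have a value but no read in the 6 libraries. The adjustment was inverted, and 1936 of 1936 values tested gave whole reads (log2 tolerance 0.0015, where neighbouring read numbers lay at least 0.02 apart). Reads of the most abundant miRNAs, and so the library totals, are approximate, since the values are rounded. On data simulated from 1058 miRNAs, 100% of counts of 1 to 100 reads were recovered.

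The list of members uses names and no measured value, but it, the marker lists and the tests were drawn up with earlier results of these data known. The test was limma 3.58.1 under R 4.3.3, two-sided, with a trend of variance on mean and group as its sole term, applied to the log2 values as deposited after a filter (adjusted count 10 reached in 3 or more of 6 libraries, 181 of 1976 miRNAs) and with Benjamini-Hochberg adjustment at 0.05. In data simulated for these 181 miRNAs, with 90 of them changed, the test found 11.3% of log2 changes of size 1, 47.5% of size 2 and 86% of size 4, and 3.77% of calls were false. Whether these rates, that of false calls included, hold for the deposited values was not tested. Over the tested miRNAs the median change of the deposited values was 1.94, and the split into higher and lower moved with the scale. A fold on this scale understates the change of low miRNAs. Replicates of a group were compared by a chi-square test of their reads, and each pair differed by more than sampling noise (chi-square per degree of freedom from 79 to 478). Intervals for a share of reads are exact binomial and for a ratio conditional exact, at 95%, and with no molecular identifiers used they cover counting error only. Members named with all values were those in the test, the 12 with the highest mean adjusted count and any with reads in at least 2 libraries of both groups. Hairpin positions and mature sequences came from RefSeq and GENCODE M21 on GRCm38. Other scalings, filters, pseudocounts, a replicate block and leaving out each library were tried.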

Additional observations from a re-analysis of the deposited data

How the results depend on the processing

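The miRNA mmu-miR-379-5p passed the filter only through the PA libraries, so the number of alternatives with a call says little about stability. It was called in 16 of 17, with changes from 2.05 to 5.24 and limma adjusted p from 0.000129 to 0.0532; it was lost, at 2.05, relative to the median change of the tested miRNAs. Leaving out a library gave changes from 3.52 (without Control replicate 3) to 4.86 (without Control replicate 1). For mmu-miR-541-5p, library totals turned the change from −0.56 to 0.67, and leaving out a library gave −2.30 (without Control replicate 3, limma adjusted p = 0.0206) to 0.38 (without Control replicate 1); without Control replicate 2 it was 0.25. Over all its alternatives the adjusted p ran from 0.0206 to 0.932. The mean log2 summed adjusted count of the cluster was higher with PA by 0.15, less than the spread between libraries (SD 1.14). The difference was 1.13 as a share of all reads, −0.996 as a share of reads other than miR-122 and −0.74 without mmu-miR-379-5p. An alternative added after seeing the data, without mmu-miR-127-3p, gave 0.90. The read ratios without Control replicate 1 were also added then. Leaving out a library gave −0.51 (without Control replicate 3) to 0.99 (without Control replicate 1), with −0.03 without Control replicate 2 and −0.14 without PA replicate 1. The difference of 11.3 in members detected became 4.33 at 5 reads or more, 3.68 at a common depth and 0.335 at a common depth without miR-122. Leaving out a library gave 10.3 to 12.8.

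The number of miRNAs changed in the table, 102 (76 higher and 26 lower), was within 1.5 times of itself in all alternatives, and leaving out a library gave 83 to 117. The split moved with the scale: 65 higher and 40 lower with each library centred on its median, 69 and 37 by the upper quartile, 89 and 8 by library totals, 57 and 41 by totals without miR-122, and 48 and 59 relative to the median. The median change was 1.94 on the deposited scale, 1.15 centred, 1.40 by the upper quartile, 2.99 by totals and 1.18 by totals without miR-122. Deviations of same-numbered libraries were weakly correlated (0.209, 0.151 and 0.0383), which does not settle whether the libraries were paired. A replicate block gave 111 calls, with mmu-miR-379-5p at 3.99 (limma adjusted p = 0.000129) and mmu-miR-541-5p at −0.56, and changed neither call. For the rest, 42 of 44 members did not pass the filter of the test, and 15 had 1 to 3 reads in all.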
